A study of Mus musculus with 6 samples.

Results

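Aminoacyl-tRNA synthetases, the enzymes that load each amino acid onto its tRNA, were examined in mouse multiple myeloma cells with and without insulin-like growth factor 1 (IGF-1). Members were taken by gene symbol from the array's probe annotation: a letter or pair of letters for the amino acid followed by "ars", with an optional digit, together with the subunit genes Farsa and Farsb and the gene Tarsl2. The rule found 25 genes, measured by 45 probe sets, among 12393 named genes and 22690 probe sets in the table. Genes whose symbol ends in 2 formed the mitochondrial class (8 genes, 13 probe sets) and the others the cytosolic class (17 genes, 32 probe sets). Tarsl2, Dars, Mars, Aars2, Cars2, Lars2, Mars2, Nars2, Vars2, Wars2 and Yars2 were not analysed here.

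The cells, labelled as malignant plasma cells from bone marrow, were kept for 12 h in serum-free medium, either without IGF-1 (control, 3 arrays) or with 100 ng/ml IGF-1 (3 arrays). RNA was hybridized to 1-colour Affymetrix arrays, and the deposited values are linear MAS5 signals, 1 per probe set and array. No label says that the replicates came from separate cultures or mice, and the strain is not named, so the p-values may reflect technical spread alone. In these bulk samples fewer cells of a type and less RNA per cell cannot be told apart. Differences are of log2(signal + 15.6), IGF-1 minus control, with standard errors. They were tested by limma with Benjamini-Hochberg adjustment over 11313 probe sets, and a gene rose or fell where its adjusted p was below 0.05. A gene was represented by its brightest probe set over the 6 arrays.

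A synthetase first activates its amino acid with ATP and then joins it to the matching tRNA, so that the ribosome can read the genetic code. Cells keep a cytosolic set and a mitochondrial set, the latter encoded in the nucleus and imported, and the products of Gars and Kars serve both compartments. Synthetases fall into structural classes I and II by the fold of the catalytic domain, and several cytosolic enzymes join the scaffold proteins AIMP1, AIMP2 and EEF1E1 in the multisynthetase complex. Many cytosolic synthetase genes are known targets of the transcription factor ATF4, which is translated when amino acids run short or the endoplasmic reticulum is under stress, and plasma cells, which secrete antibody, use charged tRNA heavily.

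Cytosolic synthetase transcripts were more often higher than lower with IGF-1, and the mitochondrial ones were divided. Of 23 genes bright enough to be tested, 3 rose (Sars, Yars and Vars), 0 fell and 20 did not pass, against 7.05% of all tested genes that rose and 8.05% that fell. All 3 that rose were cytosolic, 3 of 17 tested, while of 6 tested mitochondrial genes 0 passed with limma and 3 had an unadjusted p below 0.05. Among all 6895 tested genes, 2101 had an unadjusted limma p below 0.05. The median difference was 0.13 over the cytosolic class and -0.15 over the mitochondrial class, beside -0.01 over the 6895 genes tested. By sign alone, 15 of 17 cytosolic and 2 of 6 mitochondrial genes were above 0, against 48.7% of all genes. The array groups did not overlap, with IGF-1 higher, for 4 cytosolic genes and 1 mitochondrial gene, and with IGF-1 lower for 0 and 3, beside 17.1% and 18.2% of all genes. Relative to the control mean, the class median was 0.09, -0.02 and -0.07 in the control arrays and 0.28, 0.06 and 0.20 with IGF-1 for the cytosolic genes. For the mitochondrial genes it was 0.09, -0.07 and -0.04 against -0.05, -0.15 and -0.18, so that both classes overlapped between groups, through IGF-1 2 and control 1 in the cytosolic class and through IGF-1 1 and control 2 in the mitochondrial one.

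**Figure D1:**
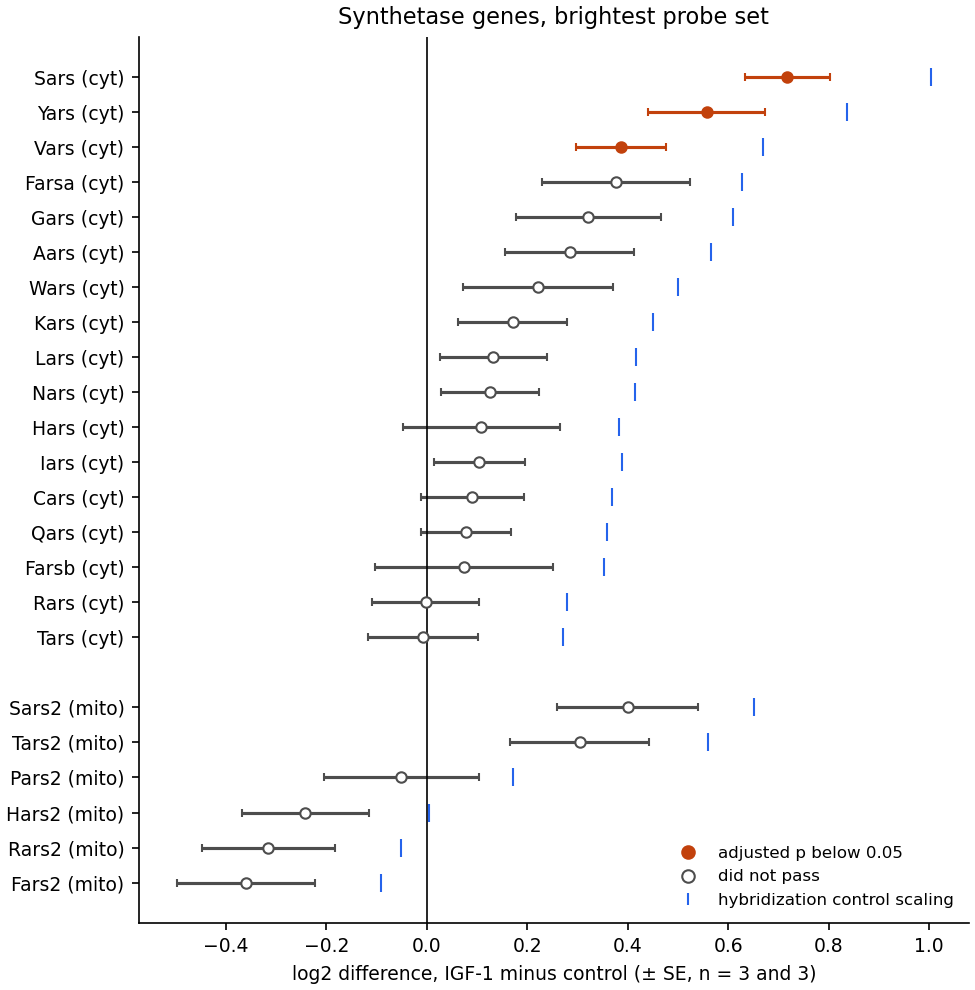
Log2 differences (IGF-1 minus control, ± SE, 3 arrays per group) of the 23 tested synthetase genes, with the 17 cytosolic genes above the 6 mitochondrial ones; blue ticks give the same differences after scaling each array to its hybridization controls. Sars, Yars and Vars carry filled symbols, and the mitochondrial genes spread from -0.36 for Fars2 to 0.40 for Sars2.

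The scale of the arrays matters for these counts. The deposited signals had been brought to 1 common trimmed mean, and scaling the arrays instead to 18 probe sets of spiked hybridization controls moved the median of all probe sets from -0.01 to 0.25. Calls over all probe sets then went from 772 rises and 937 falls (6.82% and 8.28%) to 2740 rises and 246 falls. On that scale 13 of 23 synthetase genes rose and 0 fell, against 24.5% and 2.04% of all genes, with medians of 0.42 in the cytosolic class, 0.09 in the mitochondrial class and 0.26 over all genes. This scaling moves all genes of an array nearly alike, so it bears on signs and calls and not on how a class lies beside all genes.

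Sars encodes the seryl-tRNA synthetase and had the largest rise of the family. Its brightest probe set (1426257_a_at) read 880.1, 859.8 and 953.5 in the control arrays and 1453, 1502 and 1501 with IGF-1. Every IGF-1 array lay far above every control array, and the spread within each group was small beside the gap. The difference was 0.72 ± 0.08 (adjusted p = 0.00072, higher in 3 of 3 arrays). The other probe set of Sars (1452000_s_at) gave 469 ± 24.2 and 751 ± 15.4 (SD, n = 3 each) and a difference of 0.66 ± 0.09 (adjusted p = 0.0013). Both probe sets kept their call with each array left out (highest adjusted p 0.0067 and 0.0086) and with the hybridization control scaling, where they rose by 1.00 and 0.95.

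Yars, which encodes the tyrosyl-tRNA synthetase, came next. Its 1 probe set read 407, 358 and 379.6 in the control arrays and 481.5, 632 and 602 with IGF-1, so that the groups did not overlap and IGF-1 1 was the lowest of its group. The rise was 0.56 ± 0.12 (1.47-fold, adjusted p = 0.012), a call lost without IGF-1 2 (adjusted p = 0.0517). Vars encodes the valyl-tRNA synthetase, which works beside the elongation factor complex eEF1. Its 1 probe set read 486, 471 and 447 in the control arrays and 649, 592 and 611 with IGF-1, again with every IGF-1 array above every control array. The rise was 0.39 ± 0.09 (adjusted p = 0.018), and the adjusted p lay between 0.0506 and 0.0542 when control 2 or 3, or IGF-1 1 or 3, was left out.

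Aars, the alanyl-tRNA synthetase gene, gave a different answer from each of its probe sets, which were nearly equal in brightness. The brightest (1451083_s_at) read 504, 447 and 572 in the control arrays and 683, 522 and 664 with IGF-1, and the groups overlapped through IGF-1 2 and control 3. Its difference of 0.28 ± 0.13 did not pass (adjusted p = 0.16). The other (1423685_at) read 451, 418 and 385 in the control arrays and 686, 653 and 676 with IGF-1, with no overlap and a rise of 0.67 ± 0.09 (adjusted p = 0.0018). That rise was kept with each array left out (highest adjusted p 0.0106). The suffix _s_at marks a probe set whose probes match more than 1 transcript, and without such probe sets Aars counted among the genes that rose.

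**Figure D2:**
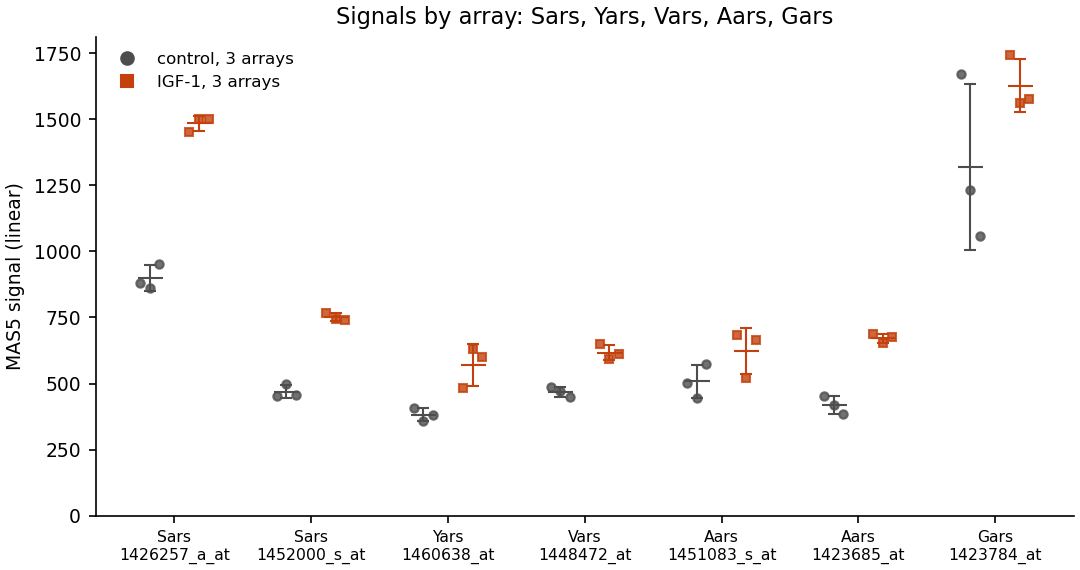
MAS5 signals (linear) of the probe sets of Sars, Yars, Vars, Aars and Gars in the 3 control arrays (circles) and the 3 IGF-1 arrays (squares), with group means ± SD. Both Sars probe sets and the second Aars probe set show separate groups, while control 1 of Gars, at 1671, lies among the IGF-1 arrays.

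To set these differences beside the genes' regulatory sequence, RefSeq promoters (GRCm38.p6, 250 bases before to 50 after the annotated start) were searched. A promoter was found for 16 of the 25 members, 10 cytosolic and 6 mitochondrial. The C/EBP-ATF response element, the composite site through which ATF4 is known to act, was searched as TGATGNAAN on both strands (NTTNCATCA on the other). It was present in 5 of 10 cytosolic promoters (Aars, Gars, Iars, Tars and Yars) and 0 of 6 mitochondrial ones, beside 3.95% of all 32851 promoters and 11 of 38 promoters of the ATF4 list. The cytosolic promoters with a match are printed below with Sars, which had the largest rise and no match. Capitals mark the bases that match the element, and each sequence runs 5′ to 3′ along its gene.
Aars (chr8:111033592-111033891, + strand): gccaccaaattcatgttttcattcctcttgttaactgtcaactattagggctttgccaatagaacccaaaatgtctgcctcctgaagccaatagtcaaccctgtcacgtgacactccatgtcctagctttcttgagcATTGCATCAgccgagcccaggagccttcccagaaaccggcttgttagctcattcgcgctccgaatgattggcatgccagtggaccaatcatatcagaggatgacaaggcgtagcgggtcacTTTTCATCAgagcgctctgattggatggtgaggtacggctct
Gars (chr6:55037751-55038050, + strand): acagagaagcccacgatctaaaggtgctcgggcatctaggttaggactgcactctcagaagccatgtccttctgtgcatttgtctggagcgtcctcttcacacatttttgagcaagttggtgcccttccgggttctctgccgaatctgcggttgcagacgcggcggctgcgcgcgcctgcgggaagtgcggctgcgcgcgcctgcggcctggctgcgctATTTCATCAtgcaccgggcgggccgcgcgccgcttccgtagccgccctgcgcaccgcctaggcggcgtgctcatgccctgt
Iars (chr13:49681880-49682179, + strand): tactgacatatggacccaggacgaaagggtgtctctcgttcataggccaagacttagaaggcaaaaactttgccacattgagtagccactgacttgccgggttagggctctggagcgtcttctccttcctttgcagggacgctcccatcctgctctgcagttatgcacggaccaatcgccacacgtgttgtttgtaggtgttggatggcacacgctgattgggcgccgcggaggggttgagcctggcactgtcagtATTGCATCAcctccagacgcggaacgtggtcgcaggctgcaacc
Tars (chr15:11399609-11399908, - strand): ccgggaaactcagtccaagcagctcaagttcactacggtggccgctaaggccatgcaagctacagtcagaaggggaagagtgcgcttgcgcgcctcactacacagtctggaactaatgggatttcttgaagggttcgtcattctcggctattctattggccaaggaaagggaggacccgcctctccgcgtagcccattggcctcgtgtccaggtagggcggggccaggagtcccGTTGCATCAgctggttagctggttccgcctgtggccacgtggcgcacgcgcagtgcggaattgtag
Yars (chr4:129189653-129189952, + strand): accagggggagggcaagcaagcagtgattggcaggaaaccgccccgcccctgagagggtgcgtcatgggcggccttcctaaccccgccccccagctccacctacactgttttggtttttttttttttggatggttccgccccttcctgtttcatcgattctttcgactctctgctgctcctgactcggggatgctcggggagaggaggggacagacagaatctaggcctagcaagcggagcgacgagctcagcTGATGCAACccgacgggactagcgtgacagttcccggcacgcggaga
Sars (chr3:108445210-108445509, - strand): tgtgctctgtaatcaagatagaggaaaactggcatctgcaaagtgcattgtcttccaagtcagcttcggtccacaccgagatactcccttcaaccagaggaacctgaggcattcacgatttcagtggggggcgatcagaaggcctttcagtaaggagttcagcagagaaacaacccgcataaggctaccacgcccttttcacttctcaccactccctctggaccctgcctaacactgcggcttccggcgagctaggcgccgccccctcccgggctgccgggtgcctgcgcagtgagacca

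The match was the 9 bases ATTGCATCA in both Aars and Iars, starting 113 bases before the start in Aars (position -113) and at position 7 after it in Iars. A further match in Aars began at position 9. That of Yars, TGATGCAAC, began at position 4 and alone lay on the gene's own strand. Gars (ATTTCATCA, position -31) and Tars (GTTGCATCA, position -16) carried theirs on the other strand, as did Aars and Iars. The differences of these 5 genes ran from -0.01 for Tars to 0.56 for Yars. Those of the cytosolic genes with no match in this window (Farsa, Farsb, Kars, Qars and Sars) ran from 0.07 for Farsb to 0.72 for Sars. No promoter was found for Vars, another gene that rose. The E-box CACGTG, to which MYC and related factors bind, was present in 4 of 10 cytosolic promoters (Aars, Farsb, Iars and Tars) and 1 of 6 mitochondrial ones (Ears2), beside 7.15% of all promoters. The CCAAT box (CCAAT or ATTGG) was in 6 of 10 and 4 of 6, beside 37.4%, and the palindrome TGACGTCA in 0 of 16, beside 1.79%. Such matches are descriptions of letters, not of binding.

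Gars and Farsa showed positive differences that did not pass. Gars, the glycyl enzyme gene of both compartments, read 1671, 1232 and 1060 in the control arrays and 1744, 1561 and 1578 with IGF-1. Control 1 lay among the IGF-1 arrays, and the difference of 0.32 ± 0.14 had an adjusted p of 0.16. It was 0.50 without control 1 (adjusted p = 0.016) and 0.18 without control 3 (adjusted p = 0.44). Farsa, which encodes the catalytic alpha subunit of the cytosolic phenylalanyl enzyme, read 83.8, 86.8 and 90.2 in the control arrays and 138, 92.5 and 126 with IGF-1. Its groups did not overlap, but the IGF-1 arrays were uneven, and the difference of 0.38 ± 0.15 did not pass (adjusted p = 0.11). It was 0.53 without IGF-1 2 (adjusted p = 0.045) and 0.27 without IGF-1 1 (adjusted p = 0.29).

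Farsb, the gene of the beta subunit that works with the Farsa product, had 4 tested probe sets, and 1 of them fell. That probe set (1430986_at), the dimmest, read 131, 103 and 80.4 in the control arrays and 37.8, 33.4 and 30.5 with IGF-1. The IGF-1 arrays were all below the lowest control array. This probe set passed the filter of 53.6 only through the control arrays, with a mean of 33.9 with IGF-1, so that it had to differ to be tested, and its difference of -1.26 ± 0.18 (adjusted p = 0.0017) is a description. The other 3 probe sets, at mean signals of 341, 307 and 202, had differences of 0.07 ± 0.18, 0.17 ± 0.14 and 0.32 ± 0.15 and did not pass. They thus lay on the other side of 0 from the dimmest, which was at -1.04 with the hybridization control scaling.

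Wars encodes the tryptophanyl-tRNA synthetase, known as an interferon-inducible enzyme. Its brightest probe set (1434813_x_at) gave 360 ± 59.8 and 422 ± 76.3 (SD, n = 3 each), overlapping groups and a difference of 0.22 ± 0.15 (adjusted p = 0.36). The dimmest (1425106_a_at) read 82, 56.3 and 62.8 in the control arrays and 119, 92.9 and 104 with IGF-1, which did not overlap. Its rise of 0.56 ± 0.15 (adjusted p = 0.037) was lost when any array other than control 1 was left out (adjusted p up to 0.115) and without a filter (adjusted p = 0.103). The remaining ones were at 0.30 ± 0.12 and -0.09 ± 0.20. Qars (glutaminyl) and Tars2 (mitochondrial threonyl) had probe sets on both sides of 0, none past the threshold. For Qars they ran from -0.30 to 0.08 over 3 probe sets, and for Tars2 they were -0.07 and 0.30.

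Across the family 9 genes had more than 1 tested probe set, and in 5 of them (Aars, Wars, Farsb, Qars and Tars2) the probe sets differed in call or direction. Of 37 tested member probe sets 6 rose and 1 fell, beside 6.82% and 8.28% of all probe sets, and 26 had a difference above 0, beside 48.4%. The groups did not overlap for 11 with IGF-1 higher and 4 with IGF-1 lower, beside 16.1% and 18.7%. The 1 that fell, also among the 4, was the dimmest Farsb probe set, which had to differ to be tested. Counting a gene where any probe set passed, a choice made after seeing the data, gave 5 genes that rose and 1 that fell, the latter being Farsb through the probe set that was bright enough in the control arrays alone. Hars, Iars, Nars and Sars had probe sets on the same side of 0. For Nars, the asparaginyl enzyme gene, they gave 0.13 ± 0.10 and 0.23 ± 0.09, neither past the threshold.

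**Figure D3:**
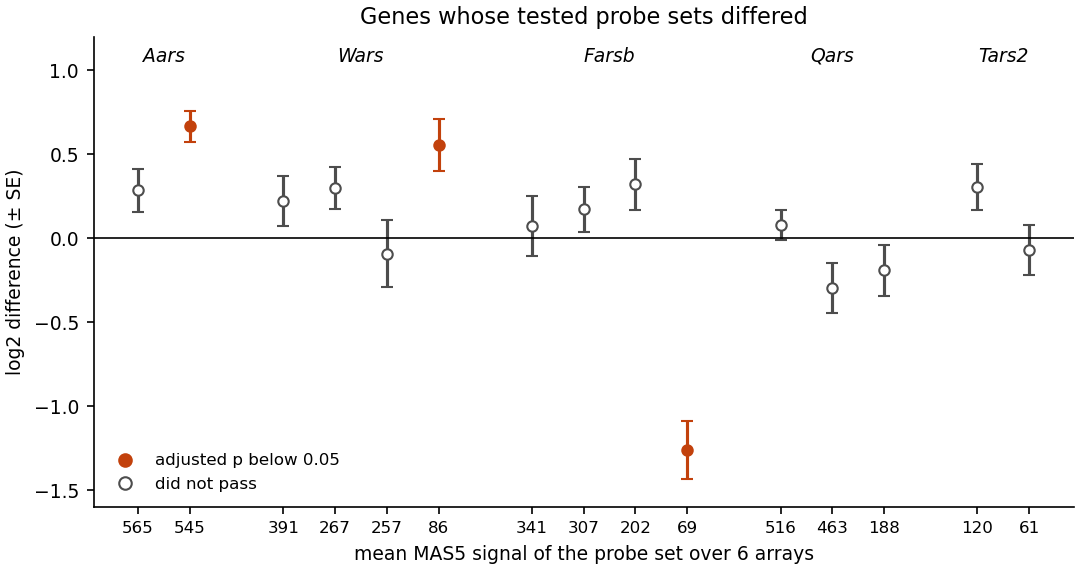
Log2 differences (± SE, 3 arrays per group) of each tested probe set of the 5 genes whose probe sets differed, from brightest to dimmest within a gene and labelled by mean MAS5 signal. The Farsb probe set at a mean signal of 69 lies at -1.26, apart from the other 3 of that gene.

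Among members of the multisynthetase complex no difference passed on the deposited scale. Of the cytosolic enzymes in it whose symbol the rule matched, 5 were measured (Iars, Kars, Lars, Qars and Rars). With limma 0 of 5 passed and 0 had an unadjusted p below 0.05, with differences from -0.00 for Rars to 0.17 for Kars and a median of 0.10. Rars, the arginyl enzyme gene, read 545, 492 and 434 in the control arrays and 510.4, 454.5 and 500.4 with IGF-1. These overlapped throughout, with a 95% interval of the difference from -0.24 to 0.23. Of the 12 cytosolic genes outside the complex 3 rose, with a median of 0.25, beside 7.05% of all tested genes. Genes in and outside the complex were not tested against each other. With the hybridization control scaling the medians were 0.39 and 0.53. On that scale 3 of 5 in the complex (Iars, Kars and Lars) and 8 of 12 outside it rose, beside 24.5% of all genes. Eprs, which encodes the glutamyl-prolyl enzyme of the complex and whose symbol the rule does not match, went from 345 ± 20.5 to 421 ± 41.5 (0.28 ± 0.10, adjusted p = 0.10, and 0.55 with an adjusted p of 0.012 with the hybridization control scaling). The scaffold genes Aimp1 (0.10 ± 0.09), Aimp2 (-0.05 ± 0.10, and 0.23 with the hybridization control scaling) and Eef1e1 (0.05 ± 0.11) did not pass either. By structural class, 2 of 8 cytosolic class I genes and 1 of 9 class II genes rose, beside 7.05% of all tested genes. Their medians were 0.12 and 0.17.

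The other cytosolic genes gave small differences. Tars, the threonyl enzyme gene, was at 403 ± 24.0 and 402 ± 49.8 (SD, n = 3 each), a difference of -0.01 ± 0.11 with a 95% interval from -0.25 to 0.24, and 0.27 with the hybridization control scaling. Cars (cysteinyl, 0.09 ± 0.10), Hars (histidyl, 0.11 ± 0.16) and Lars (leucyl, 0.13 ± 0.11) had overlapping groups and did not pass.

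In the mitochondrial class the direction differed from gene to gene and no difference passed on the deposited scale. Sars2, the mitochondrial seryl enzyme gene, came nearest. It read 95, 81.7 and 87.2 in the control arrays and 146, 104 and 116 with IGF-1, with no overlap and a difference of 0.40 ± 0.14 (adjusted p = 0.082, and 0.65 with an adjusted p of 0.011 with the hybridization control scaling). Tars2 was at 105 ± 6.92 and 135 ± 24.2 (0.30 ± 0.14, adjusted p = 0.17, and 0.56 with an adjusted p of 0.023 with that scaling). Lower values were read for Fars2, the mitochondrial phenylalanyl enzyme gene, at 210, 243 and 216 in the control arrays and 207, 141.5 and 167 with IGF-1. IGF-1 1 lay just under the lowest control array, and the difference was -0.36 ± 0.14 (adjusted p = 0.10). It was -0.49 without IGF-1 1 (adjusted p = 0.040) and -0.24 without IGF-1 2 (adjusted p = 0.31). Rars2 read 224, 168 and 174 in the control arrays and 157, 131 and 156 with IGF-1, a difference of -0.32 ± 0.13 (adjusted p = 0.14), and -0.20 without control 1 (adjusted p = 0.36). Hars2, whose gene lies next to Hars in the RefSeq table, was at 98.4 ± 5.96 and 81 ± 7.81 (-0.24 ± 0.13, adjusted p = 0.23). Those 3 had groups that did not overlap. With the hybridization control scaling their differences were -0.09, -0.05 and 0.01.

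Pars2, for proline, was the dimmest synthetase gene tested (56 ± 6.63 and 53.6 ± 6.93, a difference of -0.05 ± 0.15, and 0.17 with the hybridization control scaling). Ears2, for glutamate, and Iars2, for isoleucine, lay below the signal filter of 53.6. Ears2 had 27.2 ± 10.7 and 25.9 ± 5.10, and Iars2 34.2 ± 7.92 and 30.2 ± 9.23, with overlapping groups.

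For amino acids with both enzymes tested, the log2 ratio of the cytosolic to the mitochondrial signal was formed within each array, which cancels the scaling of that array almost fully. A change in a ratio shows unequal change and not which transcript moved. Among 6 pairs, in which Fars2 serves both phenylalanyl subunits, 5 had groups that did not overlap with the brightest probe sets. The share among ratios of other gene pairs was not computed, so this count has no background beside it. The shift was 0.74 for Farsa over Fars2, from ratios of -1.18, -1.34 and -1.13 in the control arrays to -0.54, -0.54 and -0.36 with IGF-1. It was 0.43 for Farsb over Fars2, 0.35 for Hars over Hars2 and 0.31 for Rars over Rars2, all towards the cytosolic enzyme. Tars over Tars2 went the other way, from ratios of 1.79, 1.82 and 1.76 to 1.42, 1.54 and 1.48, a shift of -0.31. With the other tested Tars2 probe set, a comparison added after seeing the data, that shift was 0.06 with overlapping groups, so its direction rests on the brightest probe set. Farsb over Fars2 likewise ran from 0.43 to 0.68 over 3 Farsb probe sets and was -0.90 with the dimmest. Hars over Hars2 shifted by 0.32 with the other tested Hars probe set, where the groups overlapped. Sars over Sars2 shifted by 0.32 with overlapping groups, IGF-1 1 being within the control range. In a two-sided exact permutation test of 3 against 3 arrays the 5 pairs had p = 0.1, the smallest such a test can give, and p = 0.12 adjusted over 6 pairs. Sars over Sars2 had an exact p of 0.2.

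**Figure D4:**
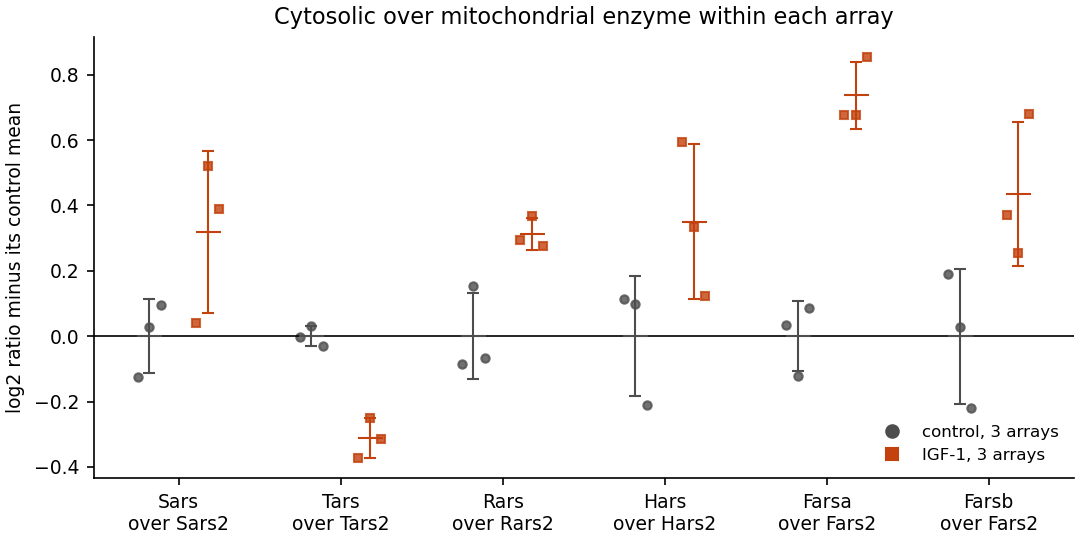
Log2 ratio of the cytosolic over the mitochondrial enzyme of 1 amino acid within each array, minus the mean of the control arrays, for 6 pairs (circles control, squares IGF-1, bars mean ± SD of 3 arrays). Farsa over Fars2 shifted most, by 0.74, and Tars over Tars2 was the pair that shifted below 0, by -0.31 with the brightest Tars2 probe set, against 0.06 with the other one.

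The lists around tRNA and its charging had calls in both directions, to be read beside the 15.1% of all tested genes called. Of 22 tested genes of tRNA maturation and modification 1 rose and 1 fell, with a median of -0.12 (0.14 with the hybridization control scaling). Tsen34, a subunit of the endonuclease that splices tRNA, rose by 0.43 ± 0.11 (adjusted p = 0.031), and Ssb, the La protein that binds new polymerase III transcripts, fell by 0.39 (adjusted p = 0.046). The call for Ssb did not hold with the replicate block, quantile normalization, no filter or no trend (adjusted p from 0.058 to 0.094), and the mean of its probe sets was at 0.0128. Of 10 tested genes of RNA polymerase III, which transcribes tRNA genes, 1 rose and 1 fell. These were the subunit gene Polr3k (0.47 ± 0.13, adjusted p = 0.039) and Maf1, a repressor of the polymerase (-0.36 ± 0.10, adjusted p = 0.039). Each of these 4 calls was lost with some arrays left out. The arrays were control 2, control 3 and IGF-1 2 for all 4, IGF-1 1 for Ssb and Polr3k, IGF-1 3 for Tsen34, Ssb and Maf1, and control 1 for Maf1 (highest adjusted p 0.153). Ssb and Maf1 also lost their calls with the hybridization control scaling, at -0.11 and -0.08. Without a filter the limma calls of Tsen34, Polr3k and Maf1 were lost too (adjusted p 0.066, 0.093 and 0.075). Maf1 did not hold with no trend (adjusted p = 0.067), nor Polr3k with the mean of its probe sets (adjusted p = 0.075).

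With limma, 0 of 10 tested cytosolic elongation and termination factors, 0 of 5 mitochondrial translation factors and 0 of 6 synthetase relatives and tRNA editing genes passed, with 1, 0 and 1 at an unadjusted p below 0.05. Of all 6895 tested genes 15.1% passed, and 2101 had an unadjusted limma p below 0.05. Their medians were 0.08, -0.04 and -0.16, and with the hybridization control scaling 0.36, 0.23 and 0.09. On that scale 5 of the 10 elongation and termination factors, 0 mitochondrial factors and 1 of the relatives and editing genes rose, beside 24.5% of all genes.

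Genes of the ATF4 response other than synthetases, a list chosen with earlier results of these data known, rose in 14 of 30 tested cases and fell in 0. Of all tested genes 7.05% rose and 8.05% fell, and the medians were 0.33 for the list and -0.01 for all. With the hybridization control scaling 21 of 30 rose and 0 fell, against 24.5% and 2.04% of all genes, with medians of 0.62 and 0.26. On the deposited scale the 3 with the smallest adjusted p were Cth (1.79 ± 0.14, adjusted p = 8.1e-05), Psph (1.18 ± 0.10, adjusted p = 0.00012) and Stc2 (0.93 ± 0.10, adjusted p = 0.00062). Cth and Psph act in the making of cysteine and serine, and Stc2 encodes the secreted protein stanniocalcin. In each the IGF-1 arrays all lay above the control arrays. Atf4 itself, picked after its values were seen, had 1937 ± 224 and 2060 ± 43.5, a difference of 0.09 ± 0.10 (adjusted p = 0.56). The list around the eIF2 kinases, which raise ATF4 translation, also held Impact, eIF2B subunits and other genes of the GCN2 arm. Eif2ak4, the gene of GCN2 itself, lay below the signal filter. Of 11 tested genes of this list 1 fell and 0 rose, beside 8.05% and 7.05% of all tested genes. It was Eif2ak3, the gene of the endoplasmic reticulum kinase PERK, which read 1111, 1123 and 1048 in the control arrays and 562.5, 693 and 708 with IGF-1. The groups were far apart, with a difference of -0.73 ± 0.10 (adjusted p = 0.0021, and 0.0126 at most with 1 array left out).

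Across the arrays, log2 signals correlated at 0.9823 to 0.9838 within groups and 0.9721 to 0.9789 between them. Of 10 listed plasma cell markers 7 were measured and all 7 passed the filter. Their summed signal was 11291 to 12216 in the control arrays and 10443 to 10881 with IGF-1, and 2 of 7 fell, Tnfrsf17 (-0.51 ± 0.10) and Slamf7 (-0.62 ± 0.13). This count and the marker counts that follow stand beside 8.05% of all tested genes that fell and 7.05% that rose. Neutrophil markers (10 of 10 tested, Ltf and Mmp8 fell) summed to 25913 to 31157 and 23842 to 26691. Macrophage and monocyte markers (8 of 10 tested, 4 fell, among them Csf1r and Fcgr3, and Cd68 rose) summed to 8102 to 9919 and 7288 to 8884. Of the T and NK cell markers 2 of 8 passed the filter, of the erythroid ones 1 of 4 and of the stromal and endothelial ones 3 of 8. Macrophage transcripts were not near 0, with control means of 4256 for Lyz2, 2337 for Ctss and 671 for Csf1r, while C1qa, the lowest of that list, had a mean of 8.02. Nor were neutrophil transcripts, with control means of 7358 for S100a9 and 6089 for Ngp, while Prtn3, the lowest of the neutrophil list, had a mean of 238. With the hybridization control scaling 0 plasma cell markers fell and 1 rose, 0 neutrophil markers fell, and 2 macrophage markers fell and 1 rose. On that scale 2.04% of all tested genes fell and 24.5% rose. The part of other cells in the synthetase differences was not tested.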

How the data were processed

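RNA of 3 control and 3 IGF-1 samples was labelled from oligo-dT primers and hybridized, per the labels' protocols. The submitters' processing notes name MAS5 and GCOS, and the deposited values are linear intensities, 1 per probe set. Versions and scaling target were not given in the sources used here. With 2% trimmed at each end, every array had a mean signal of 150.0, which takes overall RNA output as equal. Precision is limited by the number of arrays.

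The 64 control probe sets were left out. Of the rest, 20380 carried 1 gene symbol, 691 several and the others none; RefSeq identifiers (GRCm38.p6) matched 20351 and altered 0 symbols. Probe sets with a mean signal above 53.6, the median of that mean, were tested on log2(signal + 15.6), the 25th percentile of all signals being the pseudocount, with limma 3.58.1 in R 4.3.3 (lmFit, eBayes with intensity trend, two-sided, threshold 0.05). Fold changes on this scale understate changes of dim probe sets. The fit was tested on simulated data. Tables and plots used Python 3.11.15, pandas 2.3.3, numpy 2.4.6 and matplotlib 3.10.9.

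The members and lists were chosen with earlier results of these data known. Text names every member that passed, members with an adjusted p below 0.1, members whose probe sets differed, and, of each list, up to 3 genes past the threshold with the smallest adjusted p; others appear as examples or by range. Deviations of arrays with the same replicate number correlated at 0.12, -0.03 and 0.13, and those of arrays with other numbers at -0.15 to 0.03. These values do not settle whether the numbers pair samples. The main fit left the arrays unpaired, and the replicate block was run as an alternative. Alternatives covered the pseudocount, filter, normalization, moderation, array weights, probe set choice, replicate block and each array left out.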

Additional observations from a re-analysis of the deposited data

How the results depend on the processing

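The pseudocount (7.79 or 62.3), the filter, quantile normalization, the moderation and array weights left 3 synthetase genes past the threshold, all cytosolic, and so did the replicate block (3, with 1732 of all probe sets called), which ended no call of a synthetase gene. Leaving out probe sets ending in _x_at or _s_at, or averaging probe sets, gave 4, with Aars added. With hybridization control scaling 13 passed (11 cytosolic, 2 mitochondrial), with 2986 of all probe sets and 36 genes of the pathway lists, beside 1709 and 19 with the deposited scale. Without a filter 946 probe sets and 12 list genes passed. Counting any probe set of a gene gave 6 genes, 6 of them cytosolic. With 1 array left out, 2 to 4 synthetase genes passed, 2 to 4 cytosolic and 0 to 1 mitochondrial (Fars2, without IGF-1 1), while 897 to 1451 probe sets and 12 to 19 list genes passed, fewest without IGF-1 2 in both cases (probe sets also fell to 954 without control 2, 1050 without IGF-1 3 and 1137 without control 3).

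Over 23 tested members and 409 values under alternatives, 370 kept direction and side of the threshold, 5 lost a call, 15 gained one and 19 changed sign. With hybridization control scaling Rars became 0.28, Tars 0.27, Pars2 0.17 and Hars2 0.0053. Tars became 0.0066 with quantile normalization and Rars 0.0015 with array weights. Averaging probe sets put Qars at -0.14, Farsb at -0.17 and Ssb at 0.0128. With 1 array left out Rars ran from -0.0846 to 0.0745, Tars from -0.0942 to 0.0778, Hars from -0.0370 to 0.20, Farsb from -0.0553 to 0.29 and Pars2 from -0.13 to 0.0318. Beyond what the construction of each setting shows, the cause was not tested. Counting Tarsl2 as cytosolic could not be run because the gene was not analysed here. Signals near the filter, such as that of Pars2, limit what could be seen in the mitochondrial class.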
